A study of Mus musculus with 6 samples.

Results

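Sensory neuron identity transcription factors were followed as 10 genes: Pou4f1, Pou4f2, Pou4f3, Isl1, Runx1, Runx3, Prdm12, Drgx, Tlx3 and Etv1. They were taken by symbol from a count table of 45703 genes. Of the 10, 9 were listed under these symbols, and Drgx was listed as Prrxl1, for which RefSeq gives Drgx as a synonym. The samples were 6 replicate primary cultures of dorsal root ganglia (DRG), the ganglia that hold the cell bodies of sensory neurons together with their glia. The mice were C57BL/6 wild type, 4 to 6 weeks of age, and the cultures formed a single group, so no treatment or genotype was compared. Dissociated cells were kept on poly-L-lysine until day 7. The medium held 10% fetal calf serum plus the growth factors EGF and FGF (10 ng/ml), and each RNA sample came from 2 dishes. These were mixed cultures in which non-neuronal cells also grow, and the labels name no sort for neurons. The labels give the samples as replicates without saying which animals each came from, so the spread between them may be partly technical.

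These factors act in steps. Pou4f1 and Isl1 are homeodomain proteins made by nearly every sensory neuron from the time it leaves the cell cycle, and they switch off early neurogenic genes and switch on sensory ones. Prdm12, Drgx and Tlx3 belong to the nociceptor programme, Runx1 and Runx3 divide nociceptors from proprioceptors, and Etv1 is needed for proprioceptors to connect to motor neurons. Several of them are known outside neurons as well. Runx1 is a factor of blood cell lineages, and Etv1 responds to growth factor signalling in many cell types.

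The libraries held between 20070639 and 22968642 counts, so a level of 3 counts, used here as the floor of detection, was 0.131 to 0.149 CPM (the count scaled to the library total, as is usual for RNA-seq). The cultures contained neuronal RNA: all 12 genes of a neuron marker list, among them Tubb3, Stmn2 and Avil, reached 1 CPM in every library, and their summed level was between 1126 and 2463 CPM. Markers of other cells were present too, though not every list in full. At least 1 CPM in every library was reached by 6 of 6 glial lineage genes and 6 of 8 fibroblast genes. The count was 6 of 7 for mural, 5 of 8 for macrophage and 2 of 7 for endothelial genes, beside 55.8% of protein-coding genes. The summed level was 2468 to 3726 CPM for 6 glial lineage genes, 3338 to 13975 CPM for 8 fibroblast genes, 274 to 1543 CPM for 7 mural cell genes, 13.3 to 128 CPM for 8 macrophage genes and 11.8 to 119.7 CPM for 7 endothelial genes. The fibroblast sum was mostly collagen RNA. Col1a1, Col1a2 and Col3a1 averaged 1781, 2694.5 and 1954 CPM, and the other genes of that list 0.801 to 172 CPM. These sums therefore do not rank the cell types by amount. In bulk RNA, fewer cells of a type and less RNA per cell cannot be told apart.

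At least 1 CPM in all 6 libraries was reached by 6 of the 10 factors: Runx1, Pou4f1, Etv1, Isl1, Prdm12 and Drgx. Of all genes listed, 30.4% reached it, and among protein-coding genes 55.8% did. Tlx3 reached it in 3 libraries, and Pou4f2, Pou4f3 and Runx3 reached it in none. A filter on low counts (edgeR's filterByExpr) kept 7 of the 10 genes and removed those last 3. Divided by exon length, the levels ran in the order Runx1 (7.66 ± 2.60 CPM per kb), Isl1 (4.81 ± 1.33), Pou4f1 (2.94 ± 0.767), Prdm12 (1.64 ± 0.392), Drgx (1.61 ± 0.476), Etv1 (1.20 ± 0.175), Tlx3 (0.941 ± 0.429), Pou4f3 (0.204 ± 0.161), Runx3 (0.0668 ± 0.0400) and Pou4f2 (0.0359 ± 0.0197), each as mean and SD over 6 cultures.

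Between neighbours in this order, the ranges over cultures overlapped for 8 of the 9 steps. The exception was the step from Tlx3 to Pou4f3, where the lowest Tlx3 value was 0.499 and the highest Pou4f3 value 0.375 CPM per kb. Overlap of ranges does not compare the genes within a library. Within libraries, Isl1 was above Pou4f1 and Pou4f1 above Prdm12 in 6 of 6, by 1.88 ± 0.732 and 1.29 ± 0.450 CPM per kb (SD). In the other overlapping steps the higher gene was above in 4 or 5 of 6 libraries. Prdm12 and Drgx did not differ beyond their spread, with a mean difference of 0.0373 ± 0.153 CPM per kb (SD, n = 6), and Prdm12 was the higher of the pair in 4 of 6 libraries. Runx1 stood at percentile 51.8 of the 14998 genes kept by the filter, Isl1 at 40.0, Pou4f1 at 29.6 and Tlx3 at 12.2 by mean CPM per kb.

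**Figure D1:**
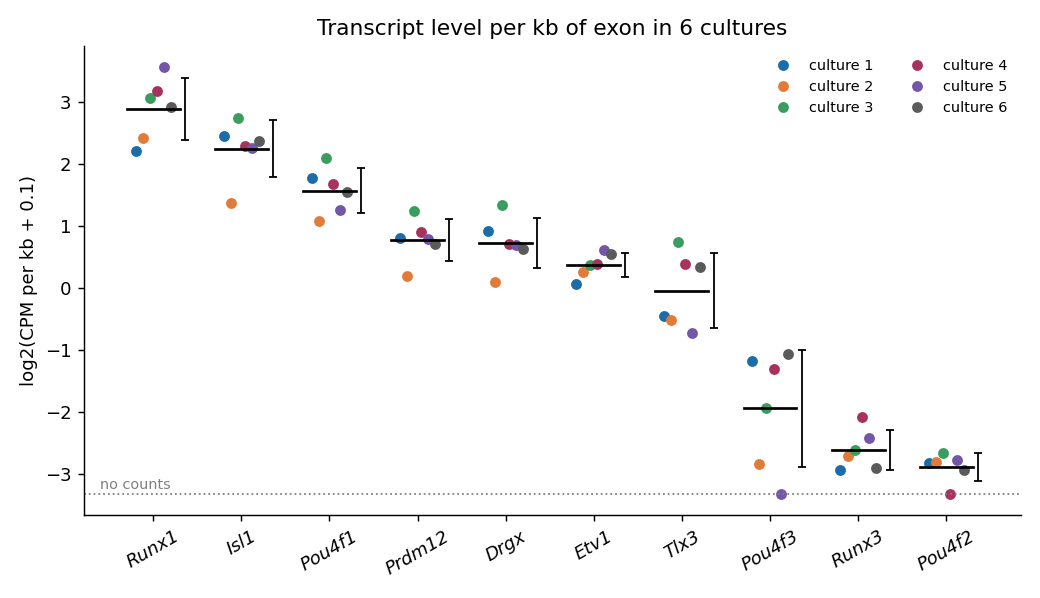
Level of each factor as log2(CPM per kb of exon + 0.1) in the 6 cultures (points), with the mean (line) and SD (bar, n = 6); the dotted line marks 0 counts. Runx1 has the highest mean, and Pou4f3, Runx3 and Pou4f2 lie below Tlx3 in every culture.

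Among the POU homeodomain genes, Pou4f1 carried nearly all of the signal. Pou4f1 (also called Brn3a; chromosome 14, 104461675 to 104468118, minus strand, GRCm38.p6) had 251 counts at the lowest and 512.33 at the highest. Its level was 11.4 CPM in replicate 2, 16.8 CPM at the median and 23.6 CPM in replicate 3. Replicates 2 and 5 were low and replicate 3 stood above the rest. Its count was fractional in 3 libraries, so it is uncertain by the reads that were counted in part. The sources used here do not say how those reads were divided.

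The paralogues Pou4f2 and Pou4f3, better known from retinal ganglion cells and from hair cells of the inner ear, were at the edge of detection. Pou4f2 (chromosome 8, 78433009 to 78436647) had 0 to 4 counts and was at or under the floor in 5 of 6 libraries. Pou4f3 (chromosome 18, 42394597 to 42396093) had 0 to 9 counts and was at or under the floor in 2. The 9 counts of replicate 6 correspond to 0.430 CPM, with a 95% exact binomial interval from 0.197 to 0.817 CPM.

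Within each library Pou4f1 exceeded both. On the scale of log2(CPM per kb + 0.1), Pou4f1 exceeded Pou4f2 by 4.46 ± 0.425 and Pou4f3 by 3.51 ± 0.767 (SD, n = 6), each in 6 of 6 libraries (exact permutation of signs, two-sided p = 0.0312, the smallest that 6 libraries allow, and 0.0375 after Benjamini-Hochberg adjustment over 6 pairs of factors). From the counts summed over libraries, Pou4f1 was 80.8 times Pou4f2 per kb (95% counting interval 48.9 to 145) and 14.4 times Pou4f3 (10.1 to 21.5). Between Pou4f2 and Pou4f3 the difference was -0.95 ± 1.07, with Pou4f2 the lower in 4 of 6 libraries, and did not pass the test over libraries (exact permutation of signs, p = 0.125, adjusted 0.125). The ratio of their summed counts per kb was 0.179, with a 95% counting interval from 0.0893 to 0.343, which covers counting error and not the spread between cultures.

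Isl1, a LIM homeodomain factor that works with Pou4f1 in sensory neurons (chromosome 13, 116298270 to 116309688, minus strand), was at 6.28 CPM in replicate 2, 12.4 CPM at the median and 16.6 CPM in replicate 3. Replicate 2 stood apart at the low end, the next lowest being 11.8 CPM in replicate 5. Per kb, Isl1 was above Pou4f1 in 6 of 6 libraries, and Pou4f1 minus Isl1 was -0.68 ± 0.235 (log2 per kb, SD, n = 6; exact permutation of signs, p = 0.0312, adjusted 0.0375). This order depends on the division by length, since Isl1 has 2526 and Pou4f1 5705 bases of exon. On CPM without length the difference was 0.47 in favour of Pou4f1, also in 6 of 6 libraries.

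The start regions of Pou4f1 and Isl1, shown because this pair marks the pan-sensory step, are both rich in G and C. Each window runs from 250 bases before to 50 bases after a RefSeq start (GRCm38.p6, minus strand, written 5′ to 3′), at chr14:104467950-104468249 for Pou4f1 and chr13:116309639-116309938 for Isl1. Capitals mark the E-box CAGCTG, a palindrome of the class bound by basic helix-loop-helix factors, in Pou4f1, and the CCAAT box (or ATTGG on the other strand) in Isl1.
Pou4f1: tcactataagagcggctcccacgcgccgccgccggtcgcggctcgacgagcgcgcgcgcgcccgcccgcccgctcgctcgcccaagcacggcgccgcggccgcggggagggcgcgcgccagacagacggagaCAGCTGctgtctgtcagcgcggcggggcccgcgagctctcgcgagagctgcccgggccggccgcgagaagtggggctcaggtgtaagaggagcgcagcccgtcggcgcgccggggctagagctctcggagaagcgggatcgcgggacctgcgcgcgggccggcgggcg
Isl1: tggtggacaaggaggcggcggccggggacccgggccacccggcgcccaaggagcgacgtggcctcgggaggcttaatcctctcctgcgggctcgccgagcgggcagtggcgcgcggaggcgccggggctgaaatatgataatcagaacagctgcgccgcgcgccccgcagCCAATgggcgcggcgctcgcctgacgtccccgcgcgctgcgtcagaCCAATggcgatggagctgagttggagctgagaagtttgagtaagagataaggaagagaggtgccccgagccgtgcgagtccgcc

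G and C made up 78.3% of the Pou4f1 window, percentile 98.2 of 32851 RefSeq windows of 300 bases, and 69.0% of the Isl1 window; the median window had 52.7%. The Pou4f1 window held 1 CAGCTG, as did 16.3% of all windows at least once. The Isl1 window held 2 CCAAT boxes and 1 CAGCTG (the latter in lower case), and 11.7% of all windows had 2 or more CCAAT boxes. These are matches of letters, and nothing was measured here about binding. The early neurogenic factors Neurog1, Neurog2, Neurod1 and Neurod4, which are basic helix-loop-helix proteins, never exceeded 3 counts. Nhlh1 and Nhlh2, also listed as early sensory neurogenesis factors, did, with 0 to 4.5 and 2 to 12.5 counts.

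The nociceptor factors followed. Prdm12 (chromosome 2, 31635026 to 31655795), a PR domain regulator whose loss abolishes pain sensing, was at 6.56 CPM in replicate 2, 10.3 CPM at the median and 14.2 CPM in replicate 3. Drgx, a paired-type homeodomain factor (chromosome 14, 32595867 to 32649246), was at 6.19 CPM in replicate 2, 9.78 CPM at the median and 15.5 CPM in replicate 3. Both genes were lowest and highest in the same libraries as Pou4f1 and Isl1.

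Tlx3 (chromosome 11, 33200752 to 33203588, minus strand), a homeobox factor that acts with Drgx in the somatosensory circuit, was the least abundant of the 7 genes kept by the filter. It had 16 counts in replicate 5 (0.764 CPM, 95% exact binomial interval 0.437 to 1.24) and 52 in replicate 3 (2.40 CPM, interval 1.79 to 3.15). The intervals of these libraries do not overlap, while those of replicates 1, 2 and 5 do. Drgx exceeded Tlx3 by 0.77 ± 0.507 on the log2 per kb scale, in 6 of 6 libraries (exact permutation of signs, p = 0.0312, adjusted 0.0375). Tlx1 had 0 counts in all libraries, and Tlx2 averaged 1.43 ± 0.416 CPM (SD, n = 6).

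Of 14 nociceptor genes, which are not all direct targets of these factors, 11 reached 1 CPM in every library, beside 55.8% of protein-coding genes. Ret, the receptor that Runx1 maintains in non-peptidergic nociceptors, averaged 159 ± 45.2 CPM. The sodium channel gene Scn10a averaged 83.5 ± 35.6 CPM, and Gfra3, a receptor of the GDNF family, 106 ± 35.0 CPM (SD, n = 6 for each). Trpm8 (1.18 ± 1.12 CPM), Mrgprd (0.521 ± 0.410 CPM) and Mrgpra3 (0.746 ± 0.580 CPM), which mark cold-sensing, mechanical and itch subtypes, stayed under 1 CPM in at least 1 library. In 10 of the 14 genes the lowest library was replicate 2, as it was for Pou4f1, Isl1, Prdm12 and Drgx. For the 12 neuron markers it was replicate 5 in 9 and replicate 2 in 3.

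The Runt domain genes Runx1 and Runx3 had the largest difference of the 6 pairs of factors compared. Runx1 (chromosome 16, 92601466 to 92826074, minus strand) was at 33.3 CPM in replicate 1, 57.8 CPM at the median and 86.0 CPM in replicate 5. Its low libraries were replicates 1 and 2 and its high one replicate 5, whereas Pou4f1, Isl1, Prdm12, Drgx and Tlx3 were highest in replicate 3. Runx3 (chromosome 4, 135120645 to 135177990), the proprioceptor factor, had 3 to 12 counts, and its highest value was 0.598 CPM in replicate 4 (95% exact binomial interval 0.309 to 1.04).

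Runx1 exceeded Runx3 by 5.50 ± 0.370 (log2 per kb, SD, n = 6), in 6 of 6 libraries (exact permutation of signs, p = 0.0312, adjusted 0.0375). The ratio of summed counts per kb was 116, with a 95% counting interval from 83.8 to 164. Runx2, the osteoblast factor of the family, was above Runx1 per kb in each library, at 21.1 ± 7.13 CPM per kb, and Cbfb, the partner subunit of all Runx proteins, averaged 181 ± 15.6 CPM (SD, n = 6). Runx2 counts were fractional in 5 libraries. Runx3 is also known in lymphocytes. Of 8 lymphocyte markers, 7 never exceeded 3 counts in a library, Cd3d and Ms4a1 being at 0, and their summed level was between 0.0346 and 0.473 CPM.

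The distal start windows of Runx1 and Runx3 are shown because the genes differ 116 times in level per kb while sharing a stretch of this sequence, and the proximal window of Runx1 is shown for contrast. Runx1 lies on the minus strand and Runx3 on the plus strand of GRCm38.p6, at chr16:92826025-92826324 (Runx1 distal), chr16:92697280-92697579 (Runx1 proximal) and chr4:135120395-135120694 (Runx3 distal). Capitals mark the Runx motif TGTGGT, here as its reverse complement ACCACA.
Runx1 distal: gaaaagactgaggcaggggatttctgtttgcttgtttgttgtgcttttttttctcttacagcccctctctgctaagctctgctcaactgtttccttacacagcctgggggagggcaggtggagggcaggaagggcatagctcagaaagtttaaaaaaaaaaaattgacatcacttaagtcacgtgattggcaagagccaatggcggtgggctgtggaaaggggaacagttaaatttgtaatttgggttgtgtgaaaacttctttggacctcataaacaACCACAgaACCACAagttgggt
Runx3 distal: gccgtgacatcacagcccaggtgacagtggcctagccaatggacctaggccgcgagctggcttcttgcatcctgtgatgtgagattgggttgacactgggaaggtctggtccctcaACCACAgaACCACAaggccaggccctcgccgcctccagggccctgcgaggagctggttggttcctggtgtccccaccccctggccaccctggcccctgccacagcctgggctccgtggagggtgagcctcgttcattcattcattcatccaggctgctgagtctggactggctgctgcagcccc
Runx1 proximal: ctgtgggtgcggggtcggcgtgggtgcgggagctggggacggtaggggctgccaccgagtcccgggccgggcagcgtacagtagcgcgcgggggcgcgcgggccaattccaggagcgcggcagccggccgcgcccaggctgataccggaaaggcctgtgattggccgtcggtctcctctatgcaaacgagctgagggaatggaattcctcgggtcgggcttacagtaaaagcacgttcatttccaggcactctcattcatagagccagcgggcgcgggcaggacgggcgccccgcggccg

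Both distal windows held 2 Runx motifs, 8 bases apart from start to start, inside an identical run of 18 bases, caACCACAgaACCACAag. Of 32851 windows, 16.8% had at least 1 such motif on either strand and 1.81% had 2 or more. The 18-base run was found in 4 windows: those of Runx1, Runx3 and Runx2, and that of Gm16225. Gm16225 is a non-coding gene that starts beside Runx3 on the other strand. Its window overlaps that of Runx3 and holds the same copy of the run, so the 4 windows are not 4 separate copies. The motifs begin 28 and 36 bases after the start in Runx1, and at -134 and -126, before the start, in Runx3. The proximal Runx1 window held no TGTGGT and had 69.0% G and C against 45.0% in the distal one. The counts are per gene and do not show which start was used.

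Etv1 (also called ER81; chromosome 12, 38780082 to 38870483), an ETS factor, varied least among the factors kept by the filter. It was at 12.3 CPM in replicate 1, 15.7 CPM at the median and 18.7 CPM in replicate 5. Its relatives Etv5 and Etv4, targets of FGF signalling, averaged 59.2 ± 11.3 CPM and 7.88 ± 5.45 CPM (SD, n = 6). Of 10 genes of mechanoreceptors and proprioceptors, 7 reached 1 CPM in every library, beside 55.8% of protein-coding genes. Which cells made this RNA was not tested, so the count does not show that such neurons were present. Ntrk3, the receptor of proprioceptors, averaged 15.6 ± 4.22 CPM, whereas the proprioceptor gene Pvalb never exceeded 3 counts.

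Other genes of the sensory identity network were set beside the 55.8% of protein-coding genes that reached 1 CPM in every library. Counts from these short lists are descriptions only. Of 15 early sensory neurogenesis factors, 7 reached 1 CPM in every library, among them Klf7 at 171 ± 24.6 CPM, Ebf1 at 32.2 ± 7.70, Sox11 at 22.4 ± 9.10, Eya2 at 14.4 ± 13.9, Ebf2 at 14.0 ± 11.5 and Ebf3 at 11.5 ± 2.60 (CPM, SD, n = 6). Of 12 family members and cofactors, 9 did, among them Isl2 at 3.82 ± 1.53 CPM and the Isl1 cofactor Ldb1 at 101 ± 8.33 CPM. Ehmt2, a histone methyltransferase that partners Prdm12, averaged 119 ± 5.67 CPM. Of 12 sensory subtype factors, 5 reached it. Maf was at 70.4 ± 5.69 CPM and Zeb2, which glia also express, at 1119.5 ± 114.6 CPM, while Shox2 and Mafa were under 1 CPM throughout.

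The spread between cultures was larger than counting noise for each of the 7 factors tested. Each gene's 6 counts were set against TMM-scaled library sizes (chi-square), and 7 of 7 had a Benjamini-Hochberg adjusted p under 0.05 over 14998 genes. The test called 76.3% of those genes, so nothing is read from this count. The adjusted p was 1.65e-140 for Runx1, 3.74e-22 for Pou4f1, 5.52e-18 for Isl1, 2.70e-17 for Drgx, 1.88e-10 for Prdm12, 5.19e-06 for Etv1 and 2.01e-05 for Tlx3.

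The coefficient of variation (CV) without its counting part was the square root of the squared CV minus the squared counting CV. It was 12.9% for Etv1, 21.4% for Prdm12, 24.5% for Pou4f1 and 25.9% for Isl1. For Drgx it was 27.5%, for Runx1 32.8% and for Tlx3 40.7%. The median was 25.9% over the 7 factors and 9.96% over all genes tested. Among genes kept by the filter, it was 29.6% for neuron markers and 36.8% for nociceptor genes. It was 22.2% for mechanoreceptor and proprioceptor genes, so a spread of this size was not particular to the factors. For Tlx3 counting noise alone would give 18.1%, the largest counting part among the 7.

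**Figure D2:**
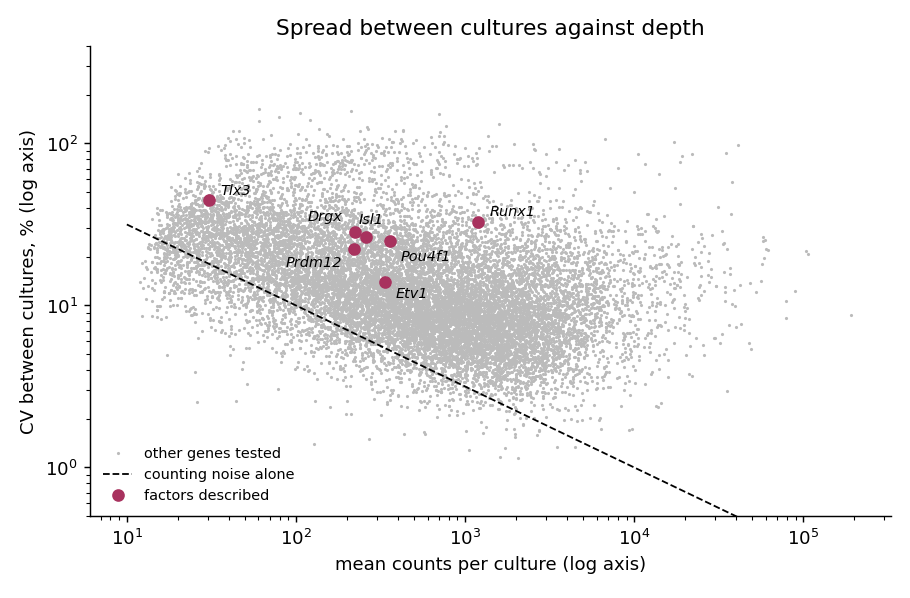
CV of TMM-scaled CPM between the 6 cultures against the mean count per culture, both on log axes, for all genes tested (grey) and the 7 factors kept by the filter (red); the dashed line is the CV that counting noise alone gives. Each factor lies above the line, from 14.0% for Etv1 to 44.5% for Tlx3.

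The factors fell into different patterns over the cultures. Levels were set beside a neuron score, a fibroblast score and a macrophage score, each the mean of log2(TMM-scaled CPM + 0.5) over the marker list. For Pou4f1 and the neuron score, Pearson's r was 0.93 (exact permutation p = 0.0139, adjusted p = 0.146 over 21 relations) while rho (Spearman) was 0.89 (exact permutation p = 0.0333, adjusted 0.233). Neither passed the adjustment. Leaving out replicates 3 and 5, whose scores lay farthest from the median, gave r = 0.90. Expressed relative to the neuron score, the SD of Pou4f1 over cultures was 0.15 in place of 0.35 (log2).

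The other homeodomain and nociceptor genes had positive coefficients with the neuron score that did not pass the adjustment. For Isl1, r was 0.69 and rho 0.94 (exact permutation p = 0.114 and 0.0167, adjusted 0.342 and 0.175). For Tlx3, r was 0.76 and rho 0.77 (exact permutation p = 0.0986 and 0.103, adjusted 0.342 and 0.360), and r was 0.30 without replicates 3 and 5. For Drgx, r was 0.74 and rho 0.71 (exact permutation p = 0.0875 and 0.136, adjusted 0.342 and 0.408). For Prdm12, r was 0.65 and rho 0.60 (exact permutation p = 0.143 and 0.242, adjusted 0.376 and 0.507). Without replicates 3 and 5, r was 0.96 for Isl1, 0.93 for Drgx and 0.81 for Prdm12. In replicate 5, where the neuron score was lowest, Isl1, Prdm12 and Drgx were close to their own means, at -0.0083, 0.0036 and -0.047 (log2).

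Relative to the neuron score, the SD was 0.33 in place of 0.43 for Isl1, 0.29 in place of 0.39 for Drgx, 0.31 in place of 0.48 for Tlx3 and 0.31 in place of 0.32 for Prdm12 (log2). It was larger, 0.72 in place of 0.49, for Runx1 and 0.52 in place of 0.20 for Etv1.

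**Figure D3:**
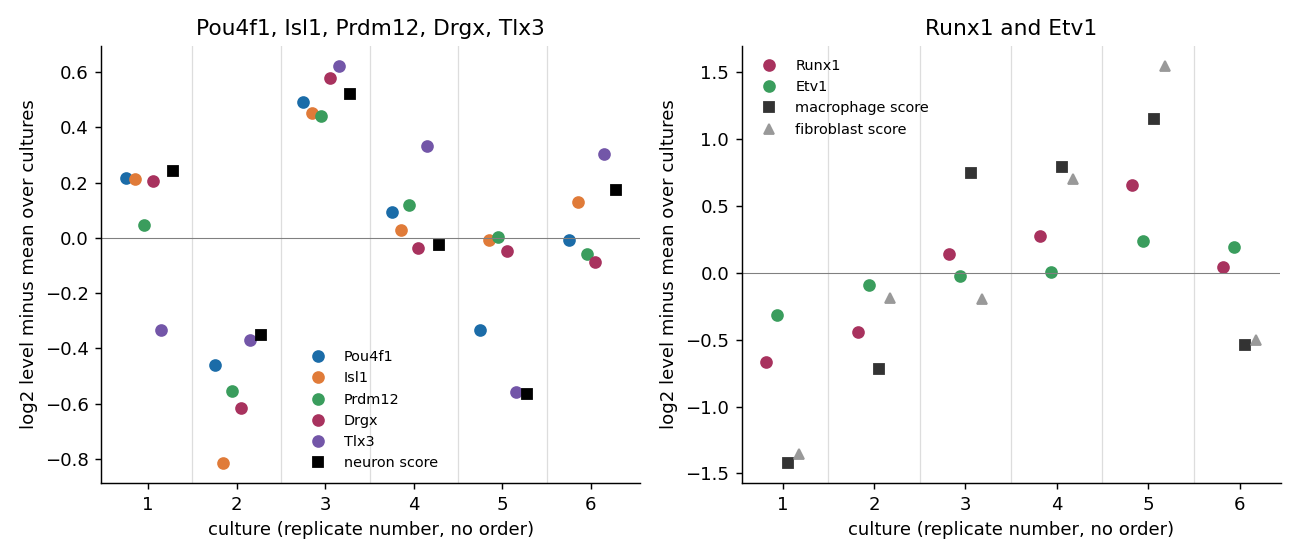
Level of each factor (circles) and score (squares, triangles) in each culture as log2 difference from its own mean over the 6 cultures; cultures have no order. Left, Pou4f1, Isl1, Prdm12, Drgx and Tlx3 with the neuron score, all highest in culture 3; right, Runx1 and Etv1 with the macrophage and fibroblast scores, all highest in culture 5 and lowest in culture 1.

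The pattern of Runx1 was set beside the macrophage score. Here r was 0.93 (exact permutation p = 0.00139, adjusted p = 0.0292), the single relation of 21 to pass by r, and rho was 1.00 (exact permutation p = 0.00278, adjusted 0.0583), which did not pass. Without replicates 1 and 5, r was 0.81. The macrophage scores lay in 2 sets, 0.86 to 1.74 in replicates 1, 2 and 6 and 3.03 to 3.43 in replicates 3, 4 and 5, each too small for a coefficient of its own, so the relation cannot be tested apart from this gap. Leaving out replicate 5 gave r = 0.91 (exact permutation, unadjusted p = 0.05). Runx1 was at 33.3, 38.4 and 54.9 CPM in replicates 1, 2 and 6 and at 60.6, 65.7 and 86.0 CPM in replicates 3, 4 and 5.

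With the fibroblast score, r of Runx1 was 0.88 and rho 0.83 (exact permutation p = 0.0222 and 0.0583, adjusted 0.156 and 0.245), and r was 0.47 without replicates 1 and 5. With the neuron score, r was -0.31 and rho -0.43 (exact permutation p = 0.544 and 0.419, adjusted 0.879 and 0.678). The fibroblast and macrophage scores themselves moved together (r = 0.87, rho = 0.83, as a description over the 6 libraries), so these data do not separate them. Of the 8 macrophage markers 7 were lowest in replicate 1 and 6 highest in replicate 5, and Csf1r averaged 18.7 ± 14.7 CPM (SD, n = 6). Of the 8 fibroblast markers 6 were lowest in replicate 1 and 7 highest in replicate 5. The mural score was also lowest in replicate 1 (3.68) and highest in replicate 5 (6.31), as was the endothelial score (0.714 and 3.19). The relations of Runx1 to these 2 scores were not computed, so the macrophage score is not singled out among cell types. The part of any of these cells in the Runx1 level was not tested.

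**Figure D4:**
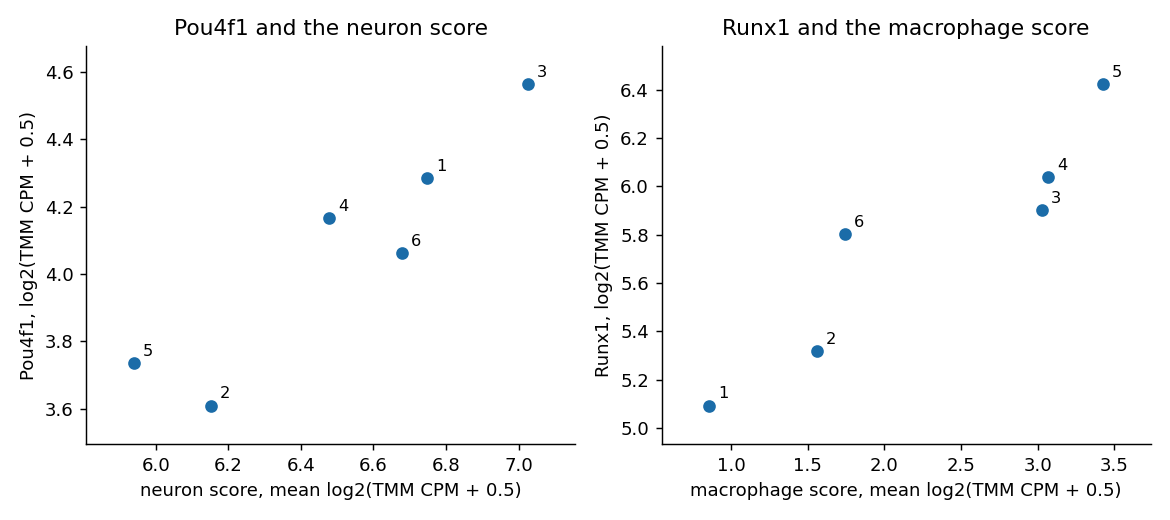
Level of Pou4f1 against the neuron score (left) and of Runx1 against the macrophage score (right), both as log2(TMM CPM + 0.5); each point is a culture with its replicate number. Cultures 3 and 1 are highest for Pou4f1 and cultures 5 and 4 for Runx1.

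Etv1 had r = 0.72 and rho = 0.60 with the fibroblast score (exact permutation p = 0.0917 and 0.242, adjusted 0.342 and 0.507). It had r = 0.65 and rho = 0.83 with the macrophage score (exact permutation p = 0.175 and 0.0583, adjusted 0.408 and 0.245). Without replicates 1 and 5 these were -0.36 and -0.20, so both rest on those libraries. With the neuron score, r was -0.40 and rho -0.49 (exact permutation p = 0.446 and 0.356, adjusted 0.780 and 0.622). The remaining 10 relations, those of Pou4f1, Isl1, Prdm12, Drgx and Tlx3 with the fibroblast and macrophage scores, had r between -0.42 and 0.47 and rho between -0.66 and 0.31. The smallest adjusted p by exact permutation was 0.766 for r and 0.459 for rho. Without replicates 1 and 5, r with the macrophage score was 0.81 for Pou4f1, 0.68 for Isl1, 0.85 for Prdm12, 0.76 for Drgx and 0.75 for Tlx3. Over those 4 libraries the 0.81 of Runx1 is therefore not particular to Runx1.

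**Figure D5:**
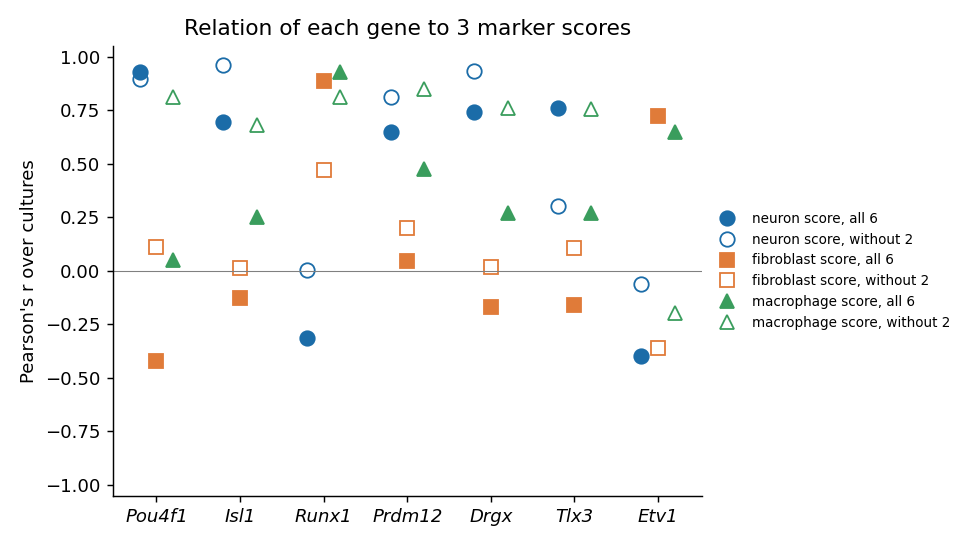
Pearson's r over cultures between each factor and the neuron, fibroblast and macrophage scores, for all 6 cultures (filled) and without the 2 cultures farthest from the median score (open). Over all 6 cultures Pou4f1 lies highest for the neuron score and Runx1 for the macrophage score, while among the open points Isl1 and Prdm12 do, and both Etv1 values above 0 turn negative when replicates 1 and 5 are left out.

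The genes whose profile over the 6 cultures was most like that of each factor were taken from 11927 genes with a mean of at least 5 CPM, as a description. For Pou4f1 they were Camta1 (r = 0.998), Nsg2 (r = 0.996) and Elavl2 (r = 0.996). For Isl1 they were Tspan8 (r = 0.996), Gnl3l (r = 0.995) and Clgn (r = 0.991), and for Prdm12 Phf24 (r = 0.999), Ywhab (r = 0.998) and Sh3bgrl2 (r = 0.994). For Runx1 they were Nox4 (r = 0.999), Eng (r = 0.997) and Odc1 (r = 0.996), and for Etv1 Dzip1l (r = 0.995), Mnat1 (r = 0.992) and Pdlim5 (r = 0.991). An r of 0.95 or more was reached by 99 genes for Pou4f1, 34 for Isl1, 67 for Prdm12, 219 for Runx1 and 69 for Etv1, so the leading genes are a few among many with such profiles over 6 points.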

How the data were processed

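RNA-seq of 6 replicate cultures was analysed. The deposited table holds estimated counts per gene, unscaled and partly fractional, with 1 column per culture, named as in the samples' descriptions; 0 other columns of per-sample values were present. Per the submitters' processing notes, bcl2fastq 2.20.0.422, cutadapt 2.5, STAR 2.7.2b and featureCounts 1.6.4 were used with build GRCm38.p6; the strand setting and the handling of multi-matching reads are not given in the sources used here. All 45703 gene identifiers matched RefSeq GRCm38.p6.

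CPM was each count scaled to its library total, and levels between genes were compared per kb of combined exon length. Counts were rounded for the filterByExpr and TMM steps of edgeR 4.0.16 (R 4.3.3) and for DESeq2 1.42.0 size factors, an alternative. Spread was tested per gene by a chi-square test, Benjamini-Hochberg adjusted over 14998 genes, and was tested on simulated data. Exact tests used scipy 1.17.1. Intervals and floors cover counting error only.

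The genes described and all lists were chosen with earlier results of these data known. Named genes were the 10 factors, the list genes and, for 5 factors, the 3 genes most like each. Some list genes are not reported here.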

Additional observations from a re-analysis of the deposited data

Results flagged for a closer look

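The endothelial marker score was 3.19 in replicate 5 and 1.30 in the next highest library. The gap was 0.762 of the range over the 6 cultures, above Dixon's 95% critical value for 6 samples. Of 22 measures examined in this way, the 10 factors and 12 lists, it was the single one, and chance would give 1.1. Replicate 5 was also the library with the highest Runx1 and Etv1 levels. Without it the mean of Runx1 was 50.6 CPM in place of 56.5. None of the 10 factors exceeded the critical value; Isl1 came closest, at 0.531, through its low level in replicate 2.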

How the results depend on the processing

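No comparison between groups, paired or not, was possible because the series holds a single group of cultures. The pairs of factors were compared within libraries. Of the differences and relations, 4 changed sign in another setting. Pou4f1 minus Isl1 was 0.47 on CPM without length. With list medians in place of means, r was -0.070 for Pou4f1 with the macrophage score, 0.0090 for Isl1 with the fibroblast score and 0.017 for Tlx3 with the fibroblast score, none of which passed in any setting. The size of differences from genes near the floor depends on the pseudocount: Pou4f1 minus Pou4f2 was 6.17 with 0.01 and 1.90 with 1, and Runx1 minus Runx3 was 6.72 and 2.97, each in the same direction with adjusted p = 0.0375 (exact sign-flip permutation). In an alternative chosen after seeing the data, r of Runx1 with the macrophage score lay between 0.871 and 0.973 with 1 library left out (exact permutation, unadjusted p between 0.00833 and 0.05, the last without replicate 5). Leaving out single libraries, 7 of 7 factors varied beyond counting noise each time, beside 66.9% to 74.8% of all genes tested (10118 to 11253 genes). With DESeq2 size factors 11436 genes did. Without the low-count filter 8 of 10 factors did, Pou4f3 being the added one (chi-square, Benjamini-Hochberg adjusted p = 0.0180), beside 13488 of 26854 genes (50.2%). Depth limits Pou4f2 and Runx3, whose differences between cultures were not resolved at these counts.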
